A study of Homo sapiens with 3 samples.

Results

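A set of 10 genes that mark or drive epithelial-mesenchymal transition (EMT) was followed in T24 cells, a human bladder urothelial carcinoma line. They were taken by symbol: CDH1, CDH2, VIM, FN1, OCLN, SNAI1, SNAI2, ZEB1, ZEB2 and TWIST1. All 10 were found among the 58381 genes counted, all 10 had at least 10 reads in a library, and 9 had at least 100. The study asked which RNAs of irradiated T24 cells depend on HDAC6, and sequenced 3 libraries: Ctrl (control cells, labelled as empty), RT (control cells given ionising radiation) and RT + shHDAC6 (cells with an shRNA against HDAC6, also irradiated). The labels give a dose of 10 Gy from a caesium source, a lentiviral pLKO.1 control vector and puromycin selection, while the paper's results call the comparator parental cells. Neither the time between irradiation and harvest nor a cloning step was given in the sources used here, and knockdown cells without radiation were not analysed here. With 1 library per condition the variation between cultures cannot be estimated, and no test was run. Every difference below is between libraries and carries a 95% counting interval that leaves out the variation between cultures.

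In EMT, epithelial cells loosen their junctions, lose apical-basal polarity and take on a motile, matrix-producing state. Transcription factors of the Snail, ZEB and Twist families drive it by binding E-box motifs and repressing junction genes such as CDH1, while N-cadherin, vimentin and fibronectin mark the mesenchymal side. In bladder carcinoma, loss of E-cadherin and gain of mesenchymal markers are associated with invasive disease, and many carcinoma cells hold intermediate states.

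The libraries held 41811165 (Ctrl), 35959265 (RT) and 35424086 (RT + shHDAC6) reads on genes. Levels are given as CPM after TMM scaling (normalised CPM, reads of a gene scaled to a common library size), where 3 reads, the limit that a count of 0 allows, correspond to 0.0662 to 0.0894. A gene is called here when its log2 ratio is at least 1 in size (2-fold) and a library of the pair has at least 10 reads. Across Ctrl, RT and RT + shHDAC6 the targeted HDAC6 RNA measured 68.3, 71.0 and 62.0 normalised CPM, so that the library labelled RT + shHDAC6 held 87.2% of the RT level (interval of the log2 ratio -0.28 to -0.11) and 90.7% of the Ctrl level. The HDAC6 RNA of these libraries thus gives little support to the knockdown label. The paper itself reports lower HDAC6 mRNA by qPCR in shHDAC6 T24 cells, and by Western blot less HDAC6 protein and more acetylated α-tubulin. That qPCR is described without mention of radiation. The blots were made without it or at a lower dose than the 10 Gy of the labels. RT + shHDAC6 is used below as the name of a library, and no difference from it is read as an effect of lower HDAC6. Of the 13 markers of blood, endothelial, muscle and liver cells that were looked at, 13 had reads in every library, and their summed level was 42.2, 27.4 and 32.7 normalised CPM in Ctrl, RT and RT + shHDAC6. Among the keratins of simple epithelia, KRT18 was at 7336, 8362 and 9048 reads and KRT8 at 1508, 796 and 1060, whereas the uroplakins UPK1B and UPK3A, which mark differentiated urothelium, had between 0 and 3 reads.

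The mesenchymal markers VIM and CDH2 stood highest of the 10 genes per kilobase in all libraries. Vimentin (VIM), the intermediate filament of mesenchymal cells, was by far the most abundant of the 10, with 121716, 74147 and 95822 reads in Ctrl, RT and RT + shHDAC6 (chromosome 10, 17228241 to 17237593, plus strand). Per kilobase of merged exon it reached 519, 427 and 529 RPKM, which placed it at rank 26, 33 and 25 of all genes with reads. N-cadherin (CDH2, ENSG00000170558, chromosome 18, 27932879 to 28177946, minus strand), the cadherin of mesenchymal and neural cells, followed at 17.4, 29.9 and 14.6 RPKM. The epithelial keratin KRT18, outside the 10 genes, stood above CDH2 at 52.7, 81.2 and 84.2 RPKM. E-cadherin (CDH1, chromosome 16, 68737292 to 68835537, plus strand), which holds epithelial cells together at adherens junctions, was at 2.26, 1.55 and 1.82 RPKM. On this per-length scale CDH2 stood 7.71-fold above CDH1 in Ctrl, 19.4-fold in RT and 8.01-fold in RT + shHDAC6, and with the length of the canonical transcript the ratios were 13.1, 32.8 and 13.6. The ratio was thus higher in RT than in either other library on both length scales.

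**Figure D1:**
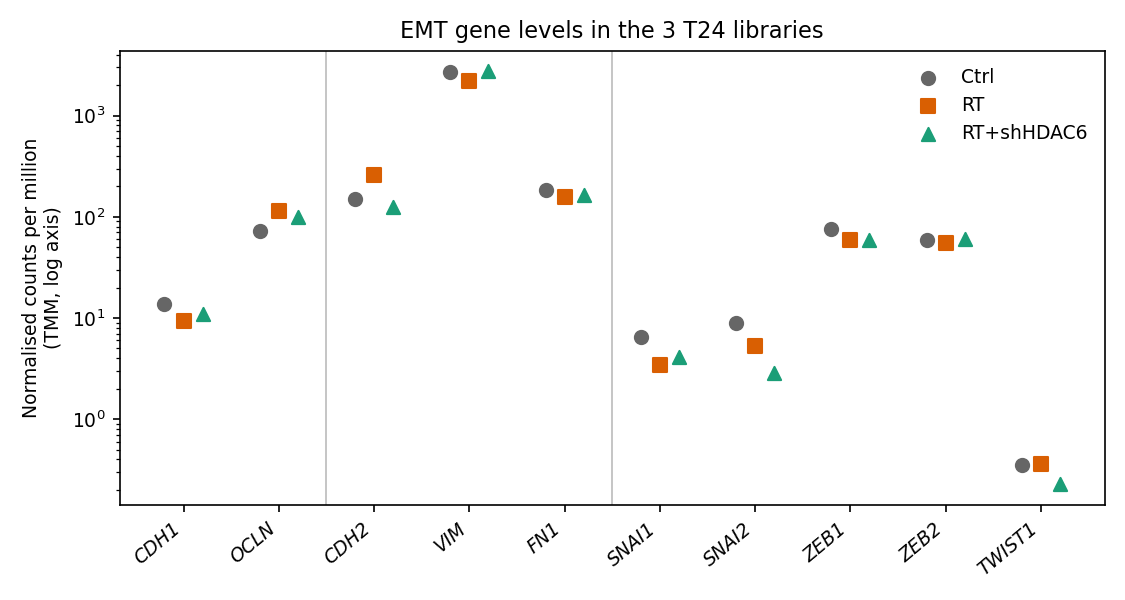
Levels of the 10 EMT genes (horizontal axis) as normalised CPM on a log axis, with 1 point per library and vertical lines between junction genes, mesenchymal genes and transcription factors. VIM lies between 2211 and 2737 in the 3 libraries, CDH2 is highest in RT, and SNAI2 is lowest in RT + shHDAC6.

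Below VIM and CDH2 the order was less firm. Fibronectin (FN1), a matrix glycoprotein, had 10.6, 9.15 and 9.61 RPKM, and occludin (OCLN, chromosome 5, 69492292 to 69558104), a tight junction membrane protein, had 6.38, 10.1 and 8.90. In RT, OCLN stood above FN1 with merged exons and below it with canonical transcripts (18.4 against 18.8 RPKM), so those neighbours cannot be ordered there. The zinc finger repressor ZEB1 was at 8.82, 6.75 and 6.88 RPKM. With merged exons its relative ZEB2, SNAI1 (Snail), SNAI2 (Slug) and CDH1 lay close together, between 0.862 and 3.76 RPKM across the libraries. Their order changed with the length used. With canonical transcripts ZEB2 was at 6.35, 5.89 and 6.58 RPKM, above SNAI1, SNAI2 and CDH1 in every library. TWIST1, a basic helix-loop-helix factor, was lowest throughout, with 16, 12 and 8 reads, which is at most 0.179 RPKM.

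Irradiation was compared first. Between RT and Ctrl none of the 10 genes passed 2-fold in either direction, where 4.81% of the 20267 genes with at least 10 reads were called higher and 9.17% lower. The higher genes made up 34.4% of all calls, and 15.5% with scaling by library totals. This balance turned round with the count minimum: the higher genes were 65.9% of 815 calls with at least 100 reads, and 89.0% of 435 with at least 1000. Past 1.5-fold, CDH2 and OCLN were higher (14.5% of all genes) and SNAI1 and SNAI2 lower (20.5% of all genes), so that 2 of 10 in each direction is near the share of all genes. The other 6 stayed within 1.5-fold.

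CDH2 had 6788 reads in Ctrl and 8613 in RT, or 150 and 257 normalised CPM. Its level in RT was 1.72-fold that in Ctrl (log2 ratio 0.78, interval 0.73 to 0.82). OCLN had 3259 and 3823 reads, or 71.9 and 114 normalised CPM, a 1.59-fold difference (log2 ratio 0.67, interval 0.60 to 0.73). A mesenchymal cadherin and a tight junction protein were therefore both higher in the irradiated library, and their intervals do not reach 0. The 6103 genes with a mean of 30 to 300 normalised CPM, CDH2 and OCLN among them, had a median log2 ratio of 0.12. Their quartiles were -0.17 and 0.46, and both CDH2 and OCLN lay above the upper one. A pseudogene copy, OCLNP1, had 40 reads in Ctrl and 29 in RT, few beside those of OCLN. How reads that match both copies were counted was not given in the sources used here.

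The other junction and matrix genes were lower in RT. CDH1 had 623 reads in Ctrl and 315 in RT, 13.7 against 9.39 normalised CPM (log2 ratio -0.55, interval -0.75 to -0.35). Of the markers of other cell types, 6 had at least 100 reads in the pair, and 6 were lower in RT, with log2 ratios between -0.79 and -0.43. PTPRC, LYZ and CDH5 reached 100 reads in Ctrl only, so this minimum favours markers that are lower in RT. Over the 10 markers with at least 10 reads the range was -1.15 to 0.34, with CD3E (15 and 14 reads) above 0. The log2 ratio of CDH1 lies in both ranges, and the part of such RNA in its reads was not tested. In bulk RNA, fewer cells that carry a transcript and less of it per cell cannot be told apart. VIM was at 82.4% of its Ctrl level (2684 against 2211 normalised CPM, log2 ratio -0.28, interval -0.29 to -0.27), and FN1 at 86.1% (log2 ratio -0.22, interval -0.27 to -0.17). Both differences are small beside the 1.5-fold limit, although deep counts make their intervals narrow. Both lay under the lower quartile of genes of similar level. It was -0.17 at a mean of 30 to 300 normalised CPM (FN1) and -0.068 at 300 or more (VIM).

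Among the repressors, SNAI1 had 291 reads in Ctrl and 115 in RT, or 6.42 and 3.43 normalised CPM. Its log2 ratio of -0.90 (interval -1.23 to -0.59) was the lowest of the 10, and with library totals it was -1.12, past 2-fold. SNAI2 had 403 and 178 reads (log2 ratio -0.74, interval -1.01 to -0.49). Both Snail genes thus had a lower level in the irradiated library. SNAI2 lies within the range of the 6 markers of other cell types with at least 100 reads (-0.79 to -0.43). SNAI1 lies just under it, and both lie within that of the 10 with at least 10 reads (-1.15 to 0.34). The part of such RNA in the reads of both Snail genes was not tested. The 5241 genes with a mean of 3 to 30 normalised CPM, among them SNAI1, SNAI2 and CDH1, had a median log2 ratio of 0.018 with quartiles of -0.33 and 0.35, so these 3 lay under the lower quartile. ZEB1 was at 76.5% of Ctrl (3461 and 1959 reads, log2 ratio -0.39, interval -0.47 to -0.31) and ZEB2 at 92.9% (2666 and 1831 reads, log2 ratio -0.11, interval -0.19 to -0.020). In their range of 30 to 300 normalised CPM the lower quartile was -0.17, with ZEB1 under it and ZEB2 above it. For TWIST1 the interval of -1.19 to 1.19 allows more than 2-fold either way, and no difference was detectable at this depth.

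**Figure D2:**
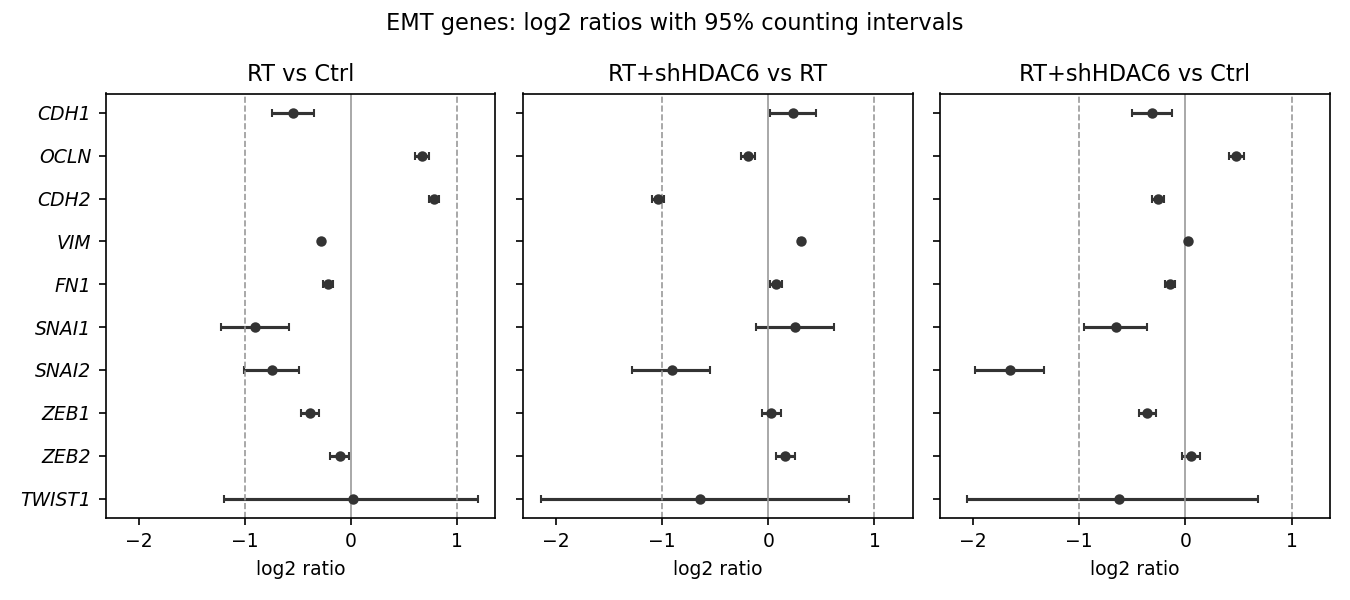
Log2 ratio of each EMT gene (horizontal axis) in the 3 comparisons, with bars for the 95% counting interval, a solid line at 0 and dashed lines at 2-fold. Only CDH2 in RT + shHDAC6 against RT (-1.04) and SNAI2 in RT + shHDAC6 against Ctrl (-1.65) lie past a dashed line.

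The comparison of RT + shHDAC6 with RT addresses the study's question of HDAC6 in irradiated cells, as far as the label holds (HDAC6 RNA at 87.2% of RT). Here 1 of the 10 genes passed 2-fold, CDH2, which was lower, where 4.35% of 19013 genes were called higher and 4.78% lower. Past 1.5-fold, 0 of the 10 were higher (10.1% of all genes), and CDH2, SNAI2 and TWIST1 were lower (9.93% of all genes). The RT library is shared with the comparison above, so a chance deviation in RT enters both with opposite sign.

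CDH2 had 8613 reads in RT and 4379 in the library labelled RT + shHDAC6, or 257 and 125 normalised CPM. The log2 ratio was -1.04 (interval -1.09 to -0.99), which leaves 48.7% of the RT level. The interval spans the 2-fold limit, and with library totals the ratio was -0.95 and no longer called. A difference of this size was uncommon among abundant RNAs: of 6995 genes with at least 1000 reads in the pair, 81 (1.16%) were called lower, and CDH2 was the only such gene among the 6 EMT genes with that many reads. This minimum was set after the values had been seen. The share was taken only for the comparison and direction in which CDH2 was called. Of the 104 calls of this comparison at this minimum, 81 were lower. Against Ctrl, CDH2 in RT + shHDAC6 stood at 83.5% (log2 ratio -0.26, interval -0.31 to -0.20), so that its highest level was that of the RT library and its 2 other levels lay closer together.

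The region before the first RefSeq start of CDH2 is shown because CDH2 had the largest difference between the irradiated libraries, and that before the first start of ZEB1 because it holds the E-box letters CAGGTG that Snail and ZEB proteins are known to bind. Both are given in GRCh38, 5′ to 3′ on the gene's strand, with the E-box in capitals. They cover 250 bases before the start, chr18:28177131-28177380 on the minus strand for CDH2 and chr10:31318167-31318416 on the plus strand for ZEB1, and neither overlaps an annotated exon of its gene. The CDH2 stretch lies inside the gene as annotated, which reaches 28177946.
CDH2: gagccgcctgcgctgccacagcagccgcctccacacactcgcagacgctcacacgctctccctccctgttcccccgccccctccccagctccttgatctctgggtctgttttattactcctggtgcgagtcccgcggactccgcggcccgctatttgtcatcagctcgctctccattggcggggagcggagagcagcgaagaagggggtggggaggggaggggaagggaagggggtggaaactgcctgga
ZEB1: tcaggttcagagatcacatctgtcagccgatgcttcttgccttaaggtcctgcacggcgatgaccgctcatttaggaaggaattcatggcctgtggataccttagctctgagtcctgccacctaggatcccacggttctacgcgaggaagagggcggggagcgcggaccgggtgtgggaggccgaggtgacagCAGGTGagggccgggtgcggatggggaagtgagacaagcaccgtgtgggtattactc
The motifs CAGGTG and its reverse complement CACCTG were searched in windows of 300 bases, 250 before and 50 after each start; they are a subset of the general E-box CANNTG. Of 35116 such windows in the RefSeq table, 20.6% held at least 1 and 68.7% held a CANNTG. Windows were present for 6 of the 10 genes, and 4 of their 14 windows held CAGGTG or CACCTG: 2 of ZEB1 and 2 of OCLN. The windows of CDH2, VIM, FN1 and ZEB2 had neither. CDH1, SNAI1, SNAI2 and TWIST1 had no entry. In OCLN the letters lie 33 bases before the first start, and 133 bases before and 35 bases after the second. Unlike the CDH2 and ZEB1 stretches, these overlap annotated OCLN exons, over all 250 bases before the first start and 137 of 250 before the second. The matches before the starts are shown, at chr5:69492502-69492531 and chr5:69492645-69492674 on the plus strand.
OCLN first start: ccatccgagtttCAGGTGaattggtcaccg
OCLN second start: tctaggacgcagCAGGTGggactcgcggcg
These matches describe letters only, and binding was not measured.

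SNAI2 (ENSG00000019549) had 178 reads in RT and 99 in the library labelled RT + shHDAC6, or 5.31 and 2.83 normalised CPM. The log2 ratio of -0.91 (interval -1.28 to -0.55) is a level of 53.3% of RT, past 1.5-fold and short of 2-fold. SNAI1, its close relative, had 115 and 143 reads (log2 ratio 0.25, interval -0.11 to 0.62), and its difference was not detectable at this depth. The intervals of the Snail genes do not overlap, and SNAI1 went from 0.646 reads per SNAI2 read in RT to 1.44 in RT + shHDAC6, after 0.722 in Ctrl. TWIST1 had 12 and 8 reads, with an interval of -2.14 to 0.76, so no difference was detectable at this depth.

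Other EMT genes differed little between the irradiated libraries. VIM was 1.24-fold higher in the library labelled RT + shHDAC6 (2211 against 2737 normalised CPM, log2 ratio 0.31, interval 0.29 to 0.32), and 24.6% of its merged exon length overlaps genes on the other strand. Of those, VIM-AS1 had 103 and 146 reads, few beside the 74147 and 95822 of VIM. The strand setting of the counting was not given, so how reads over the shared stretches were counted is not known. FN1 had 5285 and 5796 reads (log2 ratio 0.071, interval 0.017 to 0.13), OCLN 3823 and 3507 (log2 ratio -0.19, interval -0.25 to -0.12), ZEB1 1959 and 2084 (log2 ratio 0.027, interval -0.063 to 0.12) and ZEB2 1831 and 2136 (log2 ratio 0.16, interval 0.069 to 0.25). The level of ZEB1, the most abundant of the 5 transcription factors in RT per kilobase, thus could not be told apart from RT by its counts. CDH1 had 315 and 387 reads (log2 ratio 0.23, interval 0.017 to 0.45). The markers of other cell types with at least 100 reads in this pair were 3, and 3 were higher in RT + shHDAC6. Their log2 ratios were between 0.20 and 0.57, a range that includes the value of CDH1 and of SNAI1. Over the 9 markers with at least 10 reads the range was wider, at -0.27 to 0.57. PTPRC (66 and 57 reads) and LYZ (89 and 88) were below 0, and the others above. The part of such RNA in the values of CDH1 and SNAI1 was not tested.

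**Figure D3:**
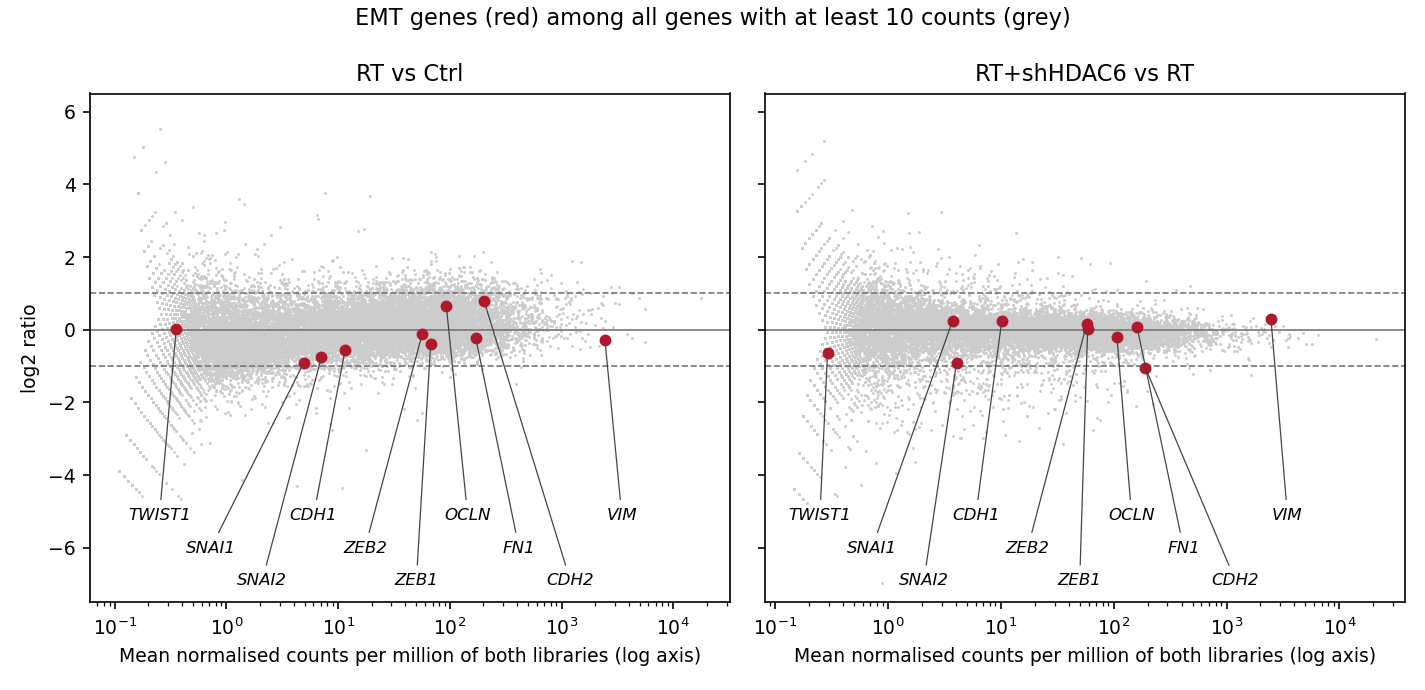
Log2 ratio (vertical axis) against the mean normalised CPM of both libraries (log axis) for all genes with at least 10 reads (grey) and the 10 EMT genes (red), with dashed lines at 2-fold. CDH2 lies high in the grey cloud in RT vs Ctrl (0.78) and low in it in RT+shHDAC6 vs RT (-1.04), where SNAI2 (-0.91) also lies low.

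RT + shHDAC6 was also set against untreated Ctrl, which joins both differences. Of the 10 genes, 1 passed 2-fold, SNAI2, which was lower, where 4.91% of 20374 genes were called higher and 10.5% lower. SNAI2 fell from 403 reads in Ctrl to 99, or from 8.89 to 2.83 normalised CPM, to 31.8% (log2 ratio -1.65, interval -1.98 to -1.33). Its whole interval lies past 2-fold, and it was the lowest in RT + shHDAC6 and intermediate in RT. Past 1.5-fold, 0 of 10 were higher (13.9% of all genes) and SNAI1, SNAI2 and TWIST1 were lower (20.5% of all genes). TWIST1 had 16 and 8 reads here, and its interval of -2.06 to 0.68 spans 0.

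SNAI1 stood at 63.6% of Ctrl (log2 ratio -0.65, interval -0.95 to -0.36), and CDH1 at 80.5% (log2 ratio -0.31, interval -0.50 to -0.13). Of the markers of other cell types with at least 100 reads in this pair, 6 of 6 were lower, with log2 ratios between -0.80 and -0.23. That range holds both values, but PTPRC, LYZ and CDH5 reached 100 reads in Ctrl only. Over the 10 markers with at least 10 reads the range was -0.80 to 0.55, with CD3E and CD14 above 0. The part of such RNA in SNAI1 and CDH1 was not tested. OCLN stood 1.39-fold above Ctrl (log2 ratio 0.48, interval 0.41 to 0.55), the highest value of the 10. Thus OCLN was above Ctrl in both irradiated libraries, and CDH2 in RT alone. ZEB1 was at 78.0% (log2 ratio -0.36, interval -0.44 to -0.28), close to its value in RT. VIM and ZEB2 lay near their Ctrl levels, at log2 ratios of 0.028 and 0.053, and with library totals both were below 0, at -0.11 and -0.081.

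Wider lists of EMT genes were described in the same way, without a test. Of 26 epithelial junction genes, 1 was called higher and 4 lower in RT than in Ctrl, where 4.81% of all genes were higher and 9.17% lower. Their median log2 ratio was -0.54, against -0.062 for all genes. For genes with a mean of 0.3 to 3 normalised CPM the median was -0.32 (quartiles -0.73 and 0.18). For those with a mean of 3 to 30 it was 0.018 (quartiles -0.33 and 0.35). The median level of the junction genes was low, at 4.36 normalised CPM in Ctrl and 2.86 in RT, near the border of those ranges. Besides JUP the lower ones, CLDN3, CLDN7 and CRB3, had at most 80 reads. JUP (plakoglobin, which links cadherins and desmosomes to the cytoskeleton) had 3367 reads in Ctrl and 815 in RT (log2 ratio -1.61, interval -1.72 to -1.50) and had 713 in RT + shHDAC6. CLDN1, a claudin of tight junctions, was higher in RT, with 3894 reads against 1982 (log2 ratio 1.41, interval 1.33 to 1.49) and lower in the other irradiated library than in RT, at 1848 (log2 ratio -1.14, interval -1.22 to -1.06). Like CDH2 it was highest in RT, but RT + shHDAC6 was above Ctrl for CLDN1 (log2 ratio 0.27, interval 0.18 to 0.36) and below it for CDH2. Between the irradiated libraries 1 junction gene was called higher and 1 lower (4.35% and 4.78% of all genes), with a median of 0.25 against -0.0032 for all genes, and the higher one was the desmosomal plakophilin PKP3 (254 and 538 reads, log2 ratio 1.02, interval 0.80 to 1.24). Against Ctrl, 0 were higher and 3 lower in RT + shHDAC6 (4.91% and 10.5% of all genes), with a median of -0.28 against -0.056. They were CLDN3, JUP (log2 ratio -1.87) and F11R, a junctional adhesion molecule (399 and 109 reads, log2 ratio -1.50, interval -1.82 to -1.19).

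Of 15 epithelial transcription and splicing regulators, 12 were measured with at least 10 reads in RT or Ctrl, with 0 higher, 2 lower (9.17% of all genes) and a median of -0.57. The lower ones were TP63, with 92 reads in Ctrl and 29 in RT, and ELF3, an epithelial ETS factor, which had 154 and 50 reads (log2 ratio -1.19, interval -1.68 to -0.72). GATA3, a factor of luminal urothelium, had 2320, 1423 and 709 reads across the 3 libraries. It was the only one of 11 called between the irradiated libraries (log2 ratio -1.07, interval -1.20 to -0.94). There 4.35% of all genes were higher and 4.78% lower, and the median of the list was 0.32. Against Ctrl GATA3 fell as well (log2 ratio -1.34), as 1 of 2 called lower of 12 (10.5% of all genes), the other being TP63. The median of the markers of other cell types was -0.58 in RT against Ctrl, 0.22 in RT + shHDAC6 against RT and -0.44 against Ctrl, of the same sign as the medians of both epithelial lists, and the part of such RNA in those lists was not tested. Of 11 urothelial and simple epithelial markers, 0 were higher and 1 lower of 7 measured in RT against Ctrl, where 9.17% of all genes were lower. The counts were 0 and 1 of 6 between the irradiated libraries (4.78% of all genes lower) and 0 and 3 of 7 for RT + shHDAC6 against Ctrl (10.5% lower). Their medians in the 3 comparisons were -0.49, 0.20 and -0.29. The markers called were the uroplakin UPK1A, with 18 reads in Ctrl and 2 in either irradiated library, KRT7 and PPARG. KRT7 had 3533, 3854 and 597 reads, and was the 1 called between the irradiated libraries. PPARG, a nuclear receptor of urothelial differentiation, fell from 1298 in Ctrl to 352 in the library labelled RT + shHDAC6 (log2 ratio -1.51, interval -1.68 to -1.34).

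Of 22 mesenchymal and contractile genes, 1 was called higher and 0 lower in RT than in Ctrl (median -0.36), where 4.81% of all genes were higher and 9.17% lower. The higher one was CD44, the hyaluronan receptor, with 42674, 64681 and 64753 reads across Ctrl, RT and RT + shHDAC6 (log2 ratio 1.04, interval 1.02 to 1.05). Between the irradiated libraries 0 were higher and 1 lower (4.35% and 4.78% of all genes, list median -0.045). The lower one was TAGLN (transgelin, an actin-binding protein of contractile cells), with 930 and 482 reads (log2 ratio -1.01, interval -1.17 to -0.85). TAGLN also had its highest level in RT, after 731 reads in Ctrl. Against Ctrl, 0 were higher and 1 lower in RT + shHDAC6 (4.91% and 10.5% of all genes, list median -0.33). It was S100A4, a calcium-binding protein of motile cells, with 269 and 83 reads (log2 ratio -1.32, interval -1.70 to -0.96).

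Of 20 other transcription factors of EMT, 15 were measured in RT against Ctrl, with 2 higher and 0 lower (median -0.017) beside the same shares of all genes, 4.81% and 9.17%. Both were inhibitors of basic helix-loop-helix factors such as TCF3: ID3 had 659, 1312 and 1569 reads and ID1 3951, 5871 and 7589. Their log2 ratios were 1.43 (interval 1.29 to 1.57) and 1.01 (interval 0.95 to 1.07) in RT against Ctrl, and 1.62 and 1.31 in RT + shHDAC6 against Ctrl. TCF3 itself had 7116, 5201 and 5417 reads, which is a log2 ratio of -0.017 in RT against Ctrl. Of 16 measured between the irradiated libraries none was called, with a median of 0.083, where 4.35% of all genes were higher and 4.78% lower. Against Ctrl, 3 of 16 were higher (ID1, ID3 and TWIST2, the last with 5 and 10 reads), where 4.91% of all genes were. The 1 lower (10.5% of all genes, list median -0.18) was KLF8 with 118 and 28 reads (log2 ratio -1.70, interval -2.35 to -1.10). Of 17 corepressors and stability factors of Snail, ZEB and Twist proteins, 0 were called in any of the 3 comparisons, beside the same shares of all genes. Their medians were -0.19, 0.028 and -0.12. Scaled by library totals, CD44 and ID1 in RT against Ctrl and GATA3 and TAGLN between the irradiated libraries lay within 2-fold (log2 ratios 0.82, 0.79, -0.98 and -0.93), whereas the 16 other values past 2-fold of list genes with at least 100 reads named here stayed past it.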

How the data were processed

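T24 RNA was sequenced in 3 libraries, 1 for each condition named in the labels. According to the paper cutadapt served the authors for trimming, STAR for alignment to GRCh38 and featureCounts for counting per gene of GENCODE release 28. The submitters' processing notes give STAR 2.6.1a, whereas the paper names another version. The deposited counts are whole numbers without normalisation. Library kits named in the labels and the paper differ, both mark strand, and the strand setting of the counting was not given in the sources used here. Of 58381 genes, 57799 matched GENCODE release 44, which gave symbols, positions and lengths.

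Counts were scaled by TMM (edgeR 4.0.16, R 4.3.3) over genes with a read. Log2 ratios used 0.5 for a count of 0, and their intervals are 95% Clopper-Pearson limits (scipy 1.17.1), which cover counting error only. PCR copies of a molecule were not told apart, so the intervals may be too narrow even for that error. RPKM was computed here from scaled counts and merged exon or canonical transcript length. The study called genes with NOISeq, whose noise is simulated when there are no replicates, and a 2-fold limit with at least 10 reads was used in its place. The quasi-likelihood test of edgeR and the test of DESeq2 need replicates. Scripts were tested on simulated data.

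The 10 genes and the 7 wider lists were chosen with earlier results of these data known. A marker gene of the list of other cell types is not reported here and was left out of that list. Genes named from a wider list are up to 3 per list and comparison, those with the largest log2 ratios past 2-fold and at least 100 reads. KRT8, KRT18, UPK1B, UPK3A, TCF3, TP63, CLDN3, CLDN7, CRB3, TWIST2, UPK1A, PTPRC, LYZ, CDH5, CD3E, CD14, OCLNP1 and VIM-AS1 were named after their values were seen. Alternatives covered 3 other scalings, the count minimum, the value for a count of 0 and the fold limit. E-box letters were searched in the RefSeq start-site windows of GRCh38.p14.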

Additional observations from a re-analysis of the deposited data

How the results depend on the processing

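No paired analysis was possible because each condition has 1 library, and no library could be left out. Of the 30 log2 ratios of the EMT genes, 27 had the same sign under TMM, library totals, median of ratios, upper quartile scaling and zeros set to 1. TWIST1 in RT against Ctrl changed sign with library totals (-0.20) and upper quartile scaling (-0.036), VIM in RT + shHDAC6 against Ctrl with the same scalings (-0.11 and -0.0011), and ZEB2 in that comparison with library totals (-0.081). Library totals shifted log2 ratios by -0.22 in RT against Ctrl, 0.084 in RT + shHDAC6 against RT and -0.13 in RT + shHDAC6 against Ctrl. With them 1 EMT gene in place of 0 passed 2-fold in the first comparison (SNAI1) and 0 in place of 1 in the second (CDH2), both by the shift itself. With a 1.5-fold limit 4, 3 and 3 EMT genes passed in the 3 comparisons, and 7094, 3805 and 7012 genes in all in place of 2833, 1737 and 3135. Without a count minimum 9185, 8211 and 9466 genes passed, with at least 100 reads 815, 379 and 1014, and with at least 1000 reads, a minimum added after the data had been seen, 435, 104 and 394. The higher genes were 34.4%, 47.7% and 31.9% of the calls, 65.9%, 31.7% and 44.6% with at least 100 reads, and 89.0%, 22.1% and 62.9% with at least 1000. With at least 1000 reads 0 EMT genes passed in RT + shHDAC6 against Ctrl, since SNAI2 had fewer. The variation between cultures cannot be seen from 1 library per condition, and at the 8 to 16 reads of TWIST1 a 2-fold difference is not resolved.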
